A study of Mus musculus with 6 samples.

Results

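Clade B serpins were read on 6 one-colour arrays of total RNA from mouse ear skin, 1 array per mouse, by 30 probes whose gene name on the array begins with Serpinb. These 30 probes stand for 26 genes and were taken from 39429 non-control probes; 13 probes (12 genes) lie on chromosome 1 and 17 probes (14 genes) on chromosome 13. The wild-type (WT) group was 3 mice described as NC16A sufficient, numbered 1, 2 and 3. The knockout (KO) group was 3 mice described as NC16A deficient, numbered 1, 2 and 7. NC16A is a domain of BP180 (collagen XVII), a protein that anchors basal keratinocytes to the basement membrane, and the study's title concerns skin inflammation when it does not function. Age and sex were matched between the groups, per the design text, while strain, actual age and sex, and how much of the domain was deleted, are not stated in the sources used here. The comparison asks which transcripts of this inhibitor family differ between the ears of both groups.

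Serpins inhibit proteases by offering an exposed reactive loop as bait: once the protease cuts it, the serpin folds around the enzyme and traps it. Clade B members lack a classical secretion signal and act mostly inside cells, where they guard the cell against its own or incoming proteases. In stratified epithelia they include inhibitors of cathepsins and of trypsin-like enzymes, in leukocytes inhibitors of granule proteases. In the mouse several ancestral genes were copied repeatedly, which gave the Serpinb3 group on chromosome 1 and the Serpinb1, Serpinb6 and Serpinb9 groups on chromosome 13.

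The Serpinb6 probes are shown first because their results turn on telling near copies apart. The probes of Serpinb6e, Serpinb6c and Serpinb6a read the same stretch of related transcripts, and 30 bases of each are given 5′ to 3′, with capitals at the positions where the 4 probes are not all the same.
Serpinb6e: agtgaccttatccataaAtATaatgAcaGT
Serpinb6c (1): agtgaccttatccataaGtGCaatgAcaGC
Serpinb6c (2): agtgaccttatccataaGtGCaatgAcaGC
Serpinb6a: agtgaccttatccataaGtGCaatgGcaAT
In this window the Serpinb6e probe differs from both Serpinb6c probes at 4 bases and from the Serpinb6a probe at 5. Over the bases that overlap without gaps, it had 10 mismatches in 56 to the first Serpinb6c probe, 6 in 47 to the second and 12 in 55 to the Serpinb6a probe. The Serpinb6e probe lies at chr13:33924218-33924277 of mm9 on the minus strand, both Serpinb6c probes between positions 33971686 and 33971762, and the Serpinb6a probe from 34009796 to 34009855. The exon or untranslated part each probe lies in was not determined here, and cross-hybridisation between these transcripts was not tested.

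A probe was kept for the test if it was well above background, by the scanner software's own call, on at least 3 of the 6 arrays. All 13 probes on chromosome 1 were kept, and 12 of them were well above background on all 6 arrays. On chromosome 13, 9 of 17 were kept. The 8 left out read Serpinb1b, Serpinb9b, Serpinb9c (2 probes), Serpinb9d, Serpinb9e (1 of 2 probes), Serpinb9f and Serpinb9g. Of these, 4 reached that call on 0 arrays, 3 did so on 1 WT array each (Serpinb9c, Serpinb9f and Serpinb9g), and Serpinb1b did so on 1 WT and 1 KO array. The copies of Serpinb9, whose parent gene inhibits granzyme B, were thus mostly not measurable in ear skin at this signal. The Serpinb9f and Serpinb9g probes share a run of 41 of their 60 bases, and whether each reads the other's transcript was not tested.

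**Figure D1:**
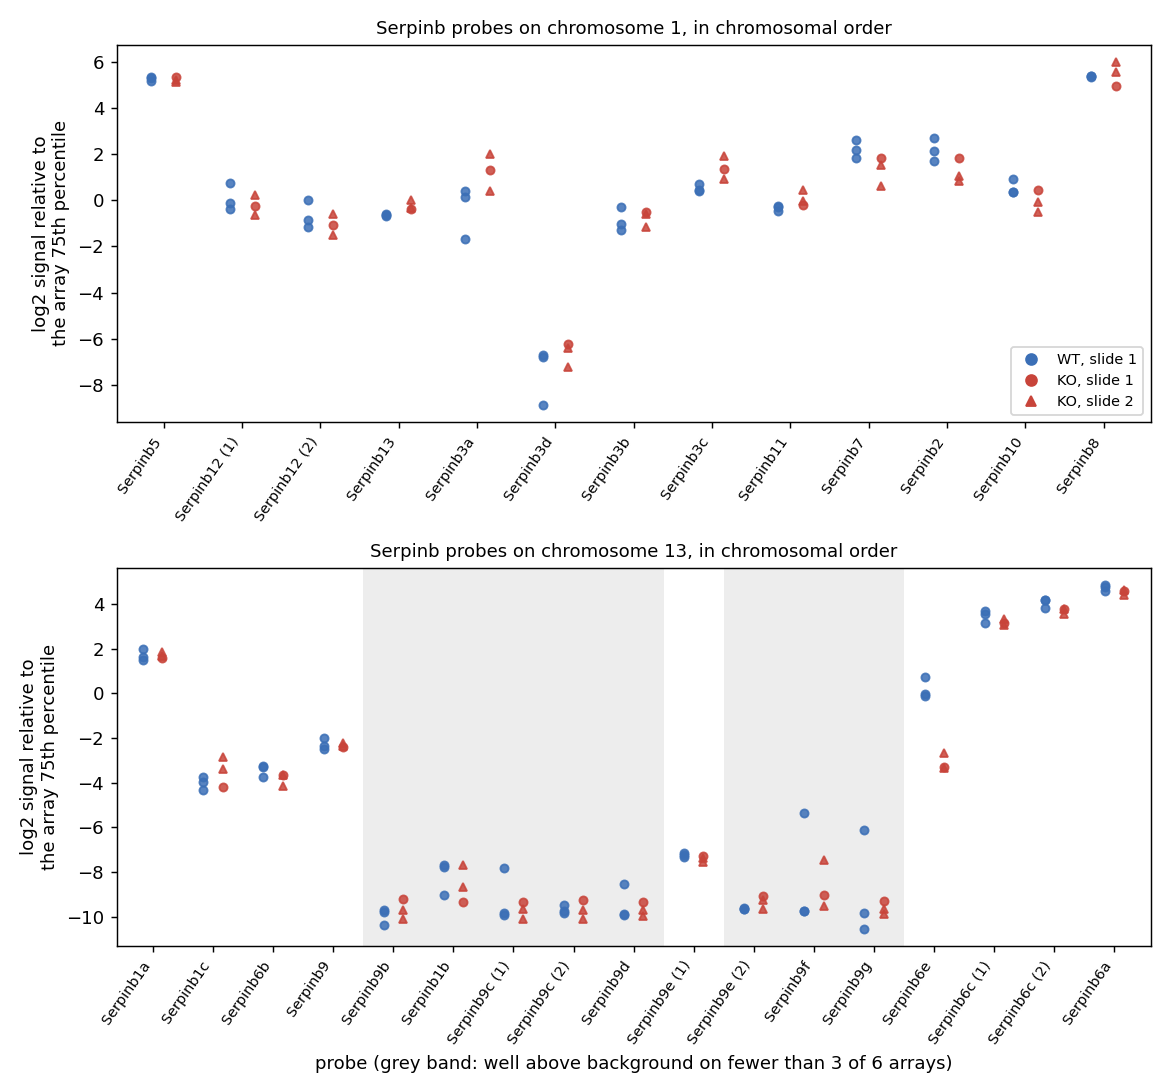
Log2 processed signal of each Serpinb probe relative to the array's 75th percentile, for every array, with WT in blue, KO in red, circles for slide 1 and triangles for slide 2; probes run in chromosomal order and grey bands mark probes well above background on fewer than 3 arrays. The Serpinb6e values of the 3 KO arrays, from -3.35 to -2.69, lie below those of the 3 WT arrays, from -0.12 to 0.74. Of the 9 kept probes of chromosome 13, 7 overlap between the groups. The share without overlap is 22.2% on this chromosome, against 35.7% of all kept probes.

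Serpinb6e was the only kept Serpinb probe that passed the test, and it was about 10-fold lower in KO ears. Its processed signal was 11107, 5093 and 5068 on the arrays of WT 1, 2 and 3, and 451, 407 and 588 on those of KO 1, 2 and 7. Every KO array lay below every WT array, and all 6 arrays were well above background. Relative to the array's 75th percentile, the WT mean of the log2 signal was 0.19 ± 0.48 (SD, n = 3). The KO mean was -3.11 ± 0.36 (SD, n = 3). Serpinb6e fell by 3.30 ± 0.29 on the log2 scale (SE of the limma fit; 95% confidence interval -3.99 to -2.61; adjusted p = 0.0042), a 9.87-fold difference. The fit covered 29601 kept probes, and the Serpinb6e difference was the 6th lowest among them. In whole-tissue RNA, fewer cells that make a transcript and less transcript per cell cannot be told apart.

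Slide 1 carried all WT arrays together with KO 1, and slide 2 carried KO 2 with KO 7. Within slide 1, the Serpinb6e signal of KO 1 fell by 3.48 on the log2 scale from the WT mean, or was 11.2-fold lower. With slide as a block the limma adjusted p was 0.041. Slide 2 holds no WT array, so that estimate is the same KO 1 minus WT value, an arm of 1 mouse, with KO 2 and KO 7 adding only to the spread. It remained past it without each mouse in turn, with differences from -3.51 to -3.03. With the replicate number as a block, which leaves 1 residual degree of freedom, the difference was -3.67 and did not pass (adjusted p = 0.093).

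The nearest relatives did not show a fall of this size. Serpinb6c was read by 2 probes with processed signals that ranged over 48251 to 119822 for WT arrays and 35134 to 61106 for KO arrays. Its differences were -0.27 ± 0.18 (95% confidence interval -0.69 to 0.15) and -0.35 ± 0.16 (-0.72 to 0.02). The second of these had no overlap between the groups, and neither passed (limma adjusted p = 0.35 and 0.20). Serpinb6a, an intracellular inhibitor of cathepsin G and other granule proteases, differed by -0.19 ± 0.14 (-0.51 to 0.14; adjusted p = 0.39). Serpinb6b, a copy farther off beside Serpinb9, differed by -0.39 ± 0.21 (-0.88 to 0.11; adjusted p = 0.27). The intervals of these 4 probes exclude a fall as large as that of Serpinb6e, whose interval ends at -2.61.

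The difference between Serpinb6e and its neighbours was also taken within each mouse. The log2 signal of Serpinb6e minus that of Serpinb6a was -4.01, -4.88 and -4.69 for WT mice 1, 2 and 3. In KO mice 1, 2 and 7 it was -7.86, -7.76 and -7.30. The KO values were lower by 3.11 on average and did not overlap the WT values. This restates the Serpinb6e difference within each array and is given as a description, with no test. Against the mean of both Serpinb6c probes the KO values were lower by 2.99. A ratio within an array shows unequal change and does not say that Serpinb6a or Serpinb6c stayed the same. The KO arrays were dimmer before scaling, with medians of 368 to 404 against 445 to 573 in WT, and the unscaled Serpinb6a signal was 88362 to 104918 in KO and 131090 to 178667 in WT.

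**Figure D2:**
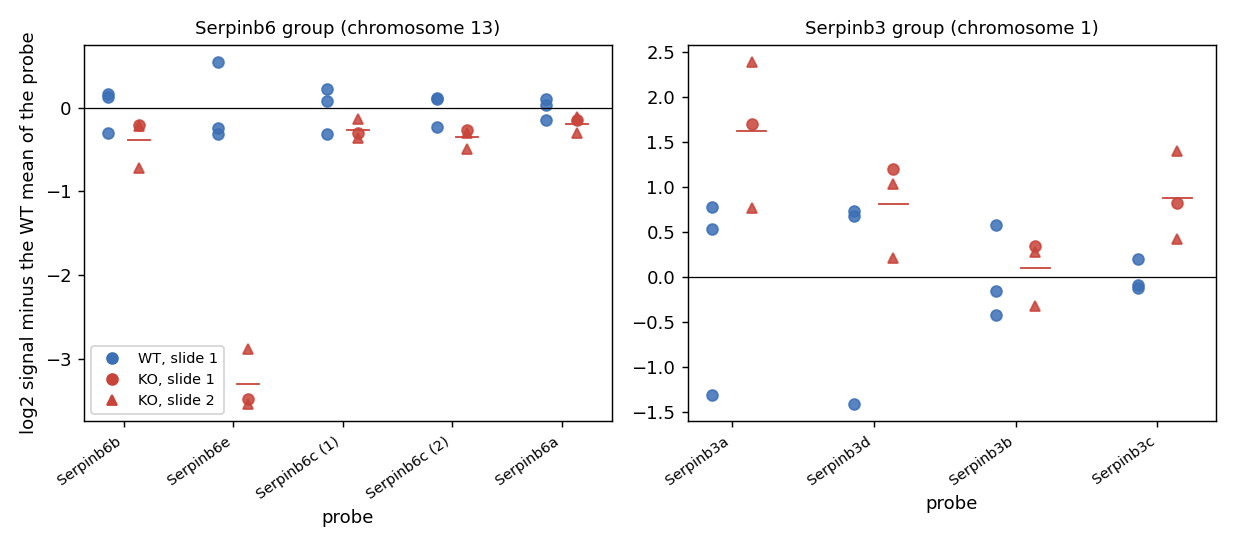
Log2 signal of each kept Serpinb6 and Serpinb3 probe minus that probe's WT mean, for every array; WT is blue, KO red, circles are slide 1, triangles slide 2, short red lines are KO means, and the 2 panels have different vertical scales. In the Serpinb6 panel the KO values of Serpinb6e stand near -3.30 while the other 4 probes have KO means between -0.39 and -0.19; in the Serpinb3 panel the KO means lie between 0.10 and 1.62 with WT and KO values mixed for all but Serpinb3c.

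No gene beside Serpinb6e passed the test. Within 500 kb of its probe on mm9, 13 kept probes of 10 other genes had differences from -1.07 to 0.46 with a median of -0.10. Their limma adjusted p was 0.074 and above, and 4 had an unadjusted p under 0.05, which 26.9% of all kept probes reached. The lowest difference was at a probe of Nqo2, a quinone reductase gene (-1.07, and -0.45 at its other probe). Both probes of Nqo2 and of Bphl and the Ripk1 probe had every KO array below every WT array. The probes of Tubb2a and LOC100044490 had every KO array above. The groups did not overlap for 35.7% of all kept probes. The array also carries a probe under the older name Gm11390, which RefSeq now lists as Serpinb6d and which the naming rule for members did not take. It lies within the same 500 kb and differed by 0.19 ± 0.39 (adjusted p = 0.76).

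The promoters of Serpinb6e and its neighbour Serpinb6c are printed as a description, and any part of them in the Serpinb6e difference was not tested. The sequences are the 250 bases before the gene's start in RefSeq (GRCm38.p6), with CpG dinucleotides in capitals, for Serpinb6e (chr13:33843409-33843658, minus strand) and Serpinb6c (chr13:33905192-33905441, minus strand).
Serpinb6e: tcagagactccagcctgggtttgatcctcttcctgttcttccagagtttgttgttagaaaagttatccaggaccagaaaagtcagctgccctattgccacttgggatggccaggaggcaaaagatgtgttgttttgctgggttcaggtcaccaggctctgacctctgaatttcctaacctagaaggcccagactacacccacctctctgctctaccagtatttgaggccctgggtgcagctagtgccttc
Serpinb6c: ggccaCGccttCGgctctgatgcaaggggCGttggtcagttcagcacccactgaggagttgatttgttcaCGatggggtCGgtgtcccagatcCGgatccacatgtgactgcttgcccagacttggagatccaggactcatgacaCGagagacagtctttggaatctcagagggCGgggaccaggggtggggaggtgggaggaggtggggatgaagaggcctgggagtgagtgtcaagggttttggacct
The Serpinb6e window of 300 bases (250 before the start and 50 after it) held 0 CpG dinucleotides, as did 5.43% of the 32851 windows in the table. The Serpinb6b window held 4, that of Serpinb6c 10, and the 2 windows of Serpinb6a 25 and 5, against a median of 7 over all windows. The letters TATAAA on either strand were in the Serpinb6c window, as in 13.6% of all windows. They are not within its 250 printed bases, so they reach into the 50 bases after the start. They were not in that of Serpinb6e, nor in those of Serpinb6b and Serpinb6a. The GC box letters GGGCGG were in the windows of Serpinb6c and Serpinb6b and in 1 of 2 of Serpinb6a, as in 35.7% of all windows, and not in that of Serpinb6e. These counts describe letters in a window, and methylation and factor binding were not measured. Of the 26 member genes, 24 had an entry among the RefSeq promoters.

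The other kept probes of chromosome 13 showed no difference past the threshold. Serpinb1a, whose protein inhibits neutrophil elastase, had processed signals of 26625, 16310 and 15377 on WT arrays, against 13364, 13226 and 13602 on KO arrays. After scaling, its difference was -0.0019 ± 0.17 (95% confidence interval -0.42 to 0.41). Serpinb1c, read by a probe that spans 236 bases of the genome, differed by 0.53 ± 0.34 (-0.28 to 1.34), and within slide 1 by -0.16. Serpinb9, the intracellular inhibitor of granzyme B, differed by -0.03 ± 0.17 (-0.44 to 0.37). The kept probe of its copy Serpinb9e was near background, well above it on 3 WT and 1 KO arrays, and differed by -0.16 ± 0.13 (-0.49 to 0.16). Over the 9 kept probes of this chromosome, 1 passed, lower in KO, 8 did not, and 8 of 9 differences were negative, with a median of -0.19. The median over all kept probes was 0.04, and their share of negative differences was not counted. The 8 include Serpinb1a and Serpinb9, at -0.0019 and -0.03, and both Serpinb6c probes, which share a run of 43 bases.

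On chromosome 1 none of the 13 kept probes passed in limma. An unadjusted limma p under 0.05 was reached by 5 of them (38.5%), 3 higher and 2 lower in KO, against 26.9% of all kept probes. The genes described next were chosen after their values were seen. Serpinb3a, a counterpart of the human squamous cell carcinoma antigens, had a log2 signal of -1.69, 0.40 and 0.15 for WT mice 1, 2 and 3. The values of KO mice 1, 2 and 7 were 1.32, 2.01 and 0.38. WT 1 was low, and KO 7 lay within the WT range. The difference of 1.62 ± 0.63 did not pass (95% confidence interval 0.11 to 3.13; adjusted p = 0.17), and without WT 1 it was 0.96. For Serpinb3c, the only member with 10 spots on each array, WT arrays gave 0.43, 0.72 and 0.40, against 1.34, 1.92 and 0.94 for KO arrays. All KO arrays lay above all WT arrays, yet the difference of 0.88 ± 0.26 did not pass (0.26 to 1.50; adjusted p = 0.11). The probes of Serpinb3a and Serpinb3c share a run of 17 bases, and partial reading of each other's transcript was not tested. Serpinb3b differed by 0.10 ± 0.30. Serpinb3d, which was not well above background on 1 of the 3 WT arrays, differed by 0.81 ± 0.60 (-0.63 to 2.26), and by 0.11 without that array (WT 1).

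Farther along the same chromosome, the neighbours Serpinb7, Serpinb2 and Serpinb10 had lower means in KO. Serpinb2, plasminogen activator inhibitor type 2, had a log2 signal of 2.67, 2.15 and 1.69 for WT mice 1, 2 and 3, against 1.82, 1.06 and 0.85 for KO mice 1, 2 and 7. KO 1 lay within the WT range and the arrays of KO 2 and KO 7, on the other slide, below it. Its difference was -0.93 ± 0.33 (-1.72 to -0.13; adjusted p = 0.15), and -0.35 within slide 1. Serpinb7, an epidermal inhibitor whose loss in humans causes a palmoplantar keratosis, had 2.60, 2.15 and 1.83 on WT arrays, and its KO arrays read 1.83, 1.51 and 0.64. KO 1 and WT 3 were all but equal, and the difference was -0.87 ± 0.34 (-1.69 to -0.05; adjusted p = 0.17), with -0.37 within slide 1. Serpinb10, known from blood-forming cells, differed by -0.59 ± 0.28 (-1.26 to 0.08) and by -0.10 within slide 1. With slide as a block none of these 3 genes passed (limma adjusted p = 0.95, 0.95 and 0.98 for Serpinb7, Serpinb2 and Serpinb10). Serpinb13, which inhibits cathepsins L and K, gave -0.64, -0.62 and -0.69 on WT arrays, against -0.40, 0.01 and -0.34 on KO arrays. The groups did not overlap, and the difference of 0.41 ± 0.15 did not pass (0.04 to 0.77; adjusted p = 0.16).

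The remaining genes of chromosome 1 differed by less or with wider spread. Serpinb5, or maspin, a family member with no known protease target, read 5.33, 5.29 and 5.17 on WT arrays, against 5.33, 5.11 and 5.21 on KO arrays, a difference of -0.05 ± 0.13 (-0.36 to 0.26). Serpinb11 differed by 0.41 ± 0.20 (-0.06 to 0.87) with all KO arrays above all WT arrays. Both probes of Serpinb12, an inhibitor of trypsin-like proteases, gave similar values (-0.31 ± 0.35 and -0.38 ± 0.35), and they share a run of 24 bases. Serpinb8, an inhibitor of furin, gave 5.35, 5.37 and 5.39 on WT arrays. Its KO arrays read 4.93, 5.57 and 5.99. The WT values were close together and the KO values lay on both sides of them (0.13 ± 0.26; -0.50 to 0.76). Its probe is low in complexity, as 30 of its bases show, with the longest alternating run in capitals.
Serpinb8: tgtgtaTGTGTGTGTGTGTGcctctgtgtg
A run of 14 bases or more of alternating T and G, on either strand, was found in 122 of the 29601 kept probes and in no other Serpinb probe. Runs of other alternating bases were not counted. Whether other transcripts with the repeat add to this signal was not tested.

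**Figure D3:**
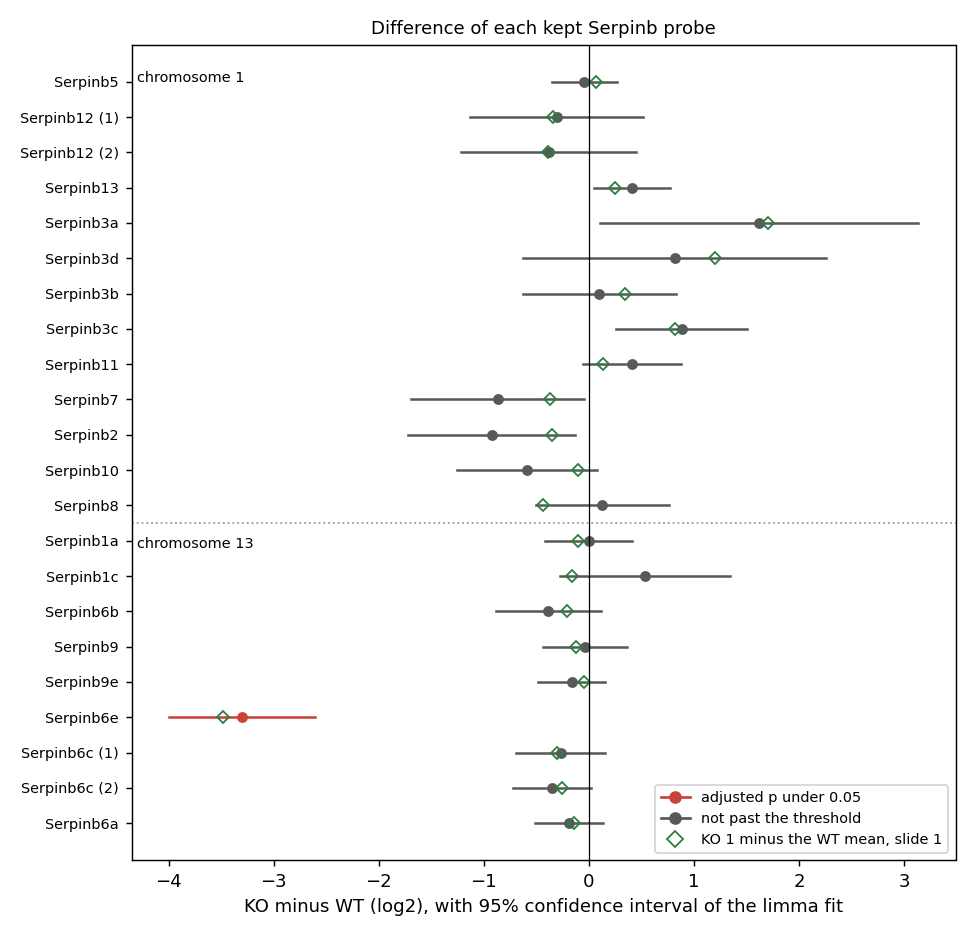
KO minus WT difference (log2) of each of the 22 kept Serpinb probes in chromosomal order, with 95% confidence intervals of the limma fit, red where the adjusted p was under 0.05; green diamonds are KO 1 minus the WT mean within slide 1. Serpinb6e, at -3.30 with a slide 1 value of -3.48, is the only red interval, and the uncalled differences lie between -0.93 and 1.62.

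The shares of the family are given beside those of all probes. Of 22 kept Serpinb probes 1 passed (4.55%), where 2.11% of all 29601 kept probes did (1.76% higher and 0.355% lower). An unadjusted p under 0.05 was reached by 27.3% of the Serpinb probes and by 26.9% of all probes. The groups did not overlap for 3 Serpinb probes above WT and 3 below it, 27.3% together, against 35.7% of all probes (20.8% above and 14.9% below). The median difference was -0.11 for the Serpinb probes and 0.04 for all, and the median size of a difference, whatever its sign, was 0.38 and 0.29. With slide as a block, where the difference rests on KO 1 alone, 1 member (Serpinb6e) and 0.652% of all probes passed (0.0338% lower). Of the 22 differences 19 had the same sign within slide 1. KO 1 and all WT arrays enter both values, so this agreement is partly built in and gives no separate support. The share over all probes was not counted. Scaling by the array median instead moved the median difference of all probes to -0.10. Under it, 435 probes were higher and 172 lower, against 521 and 105 here.

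The proteases that clade B serpins hold in check were examined as a list of 25 genes, which includes the plasminogen pathway. All 26 probes were kept, 0 were higher and 0 lower at the limma threshold, 2 had an unadjusted p under 0.05, and the median difference was 0.15. Gzmb, encoding the target of Serpinb9, differed by 1.08 ± 0.30 (adjusted p = 0.10) and Plat, encoding the tissue plasminogen activator that Serpinb2 inhibits, by -0.51 ± 0.14 (adjusted p = 0.11). Among 37 kept probes of serpins from other clades, 14 had an unadjusted limma p under 0.05, which 26.9% of all kept probes reached. The median difference was 0.16. At the limma threshold 3 of the 37 were higher and 2 lower, where 2.11% of all kept probes passed. They were Serpina9 (2.16 ± 0.31, adjusted p = 0.023), Serpina10 (1.48 ± 0.20, adjusted p = 0.019), Serpina11 (0.80 ± 0.14, adjusted p = 0.044), Serpinf1, which encodes pigment epithelium-derived factor (-1.30 ± 0.18, adjusted p = 0.019), and the pseudogene Serpina4-ps1 (-0.84 ± 0.12, adjusted p = 0.023). None of these 5 passed with slide as a block (adjusted p from 0.11 to 0.42).

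On each array 72.6% to 78.2% of spots gave signal well above background. The keratinocyte genes Krt5, Krt14, Krt1, Krt10, Lor and Col17a1, which define the labelled tissue, were all well above background, with 0 of 8 probes past the limma threshold, 5 at an unadjusted p under 0.05 and a median difference of 0.47. Their summed signal, in units of the array's 75th percentile, was 327 to 394 in WT and 455 to 572 in KO. The inner root sheath markers of the hair follicle moved most: all 7 probes of 6 genes were higher, with a median difference of 3.57, among them Krt73 (3.11 ± 0.22), Krt25 (4.22 ± 0.38), Tchh (3.56 ± 0.34) and Krt71 (3.96 ± 0.38), with limma adjusted p from 0.0019 to 0.0056. With slide as a block 3 of the 7 did not pass (Krt71, adjusted p = 0.058, Krt27, 0.055, and 1 of 2 Krt28 probes, 0.067). Their summed signal on that scale was 4.72 to 9.79 in WT and 61.1 to 111 in KO. Of neutrophil markers 1 of 8 kept probes was higher (Cxcr2, 2.05 ± 0.26, adjusted p = 0.015, and 0.10 with slide as a block), with a summed signal of 8.57 to 9.15 in WT and 12.0 to 22.1 in KO. The 8 neutrophil probes split, 7 higher and 1 lower in KO, with a median difference of 0.59. Every KO array lay above every WT array for 4 of them and below for 1. No kept probe passed among markers of cytotoxic lymphocytes (8), monocytes and macrophages (9), mast cells (6) or dermis (4), with 4, 4, 0 and 3 at an unadjusted p under 0.05. The summed signal of the dermal markers was 227 to 273 in WT and 299 to 430.0 in KO, without overlap. It was 1.91 to 2.10 and 1.66 to 1.94 for cytotoxic lymphocytes, 19.9 to 23.4 and 16.9 to 30.2 for monocytes and macrophages, and 21.6 to 27.9 and 23.1 to 54.9 for mast cells, overlapping in each. Of the 9 monocyte and macrophage probes 7 were lower in KO and 2 higher, with a median difference of -0.20. Every KO array lay below every WT array for 4 of these 9 and above for 0. Over all kept probes that held for 14.9% below and 20.8% above. Most of the cytotoxic sum came from Nkg7, and the 8 probes of that list split, 4 higher and 4 lower in KO. Higher were Cd8a (1.30 and 0.31), Gzmb (1.08) and Cd8b1 (0.96). Lower were Nkg7 (-0.49 and -0.13), Klrd1 (-0.33) and Prf1 (-0.18). The part of these cell types in the Serpinb6e difference was not tested.

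**Figure D4:**
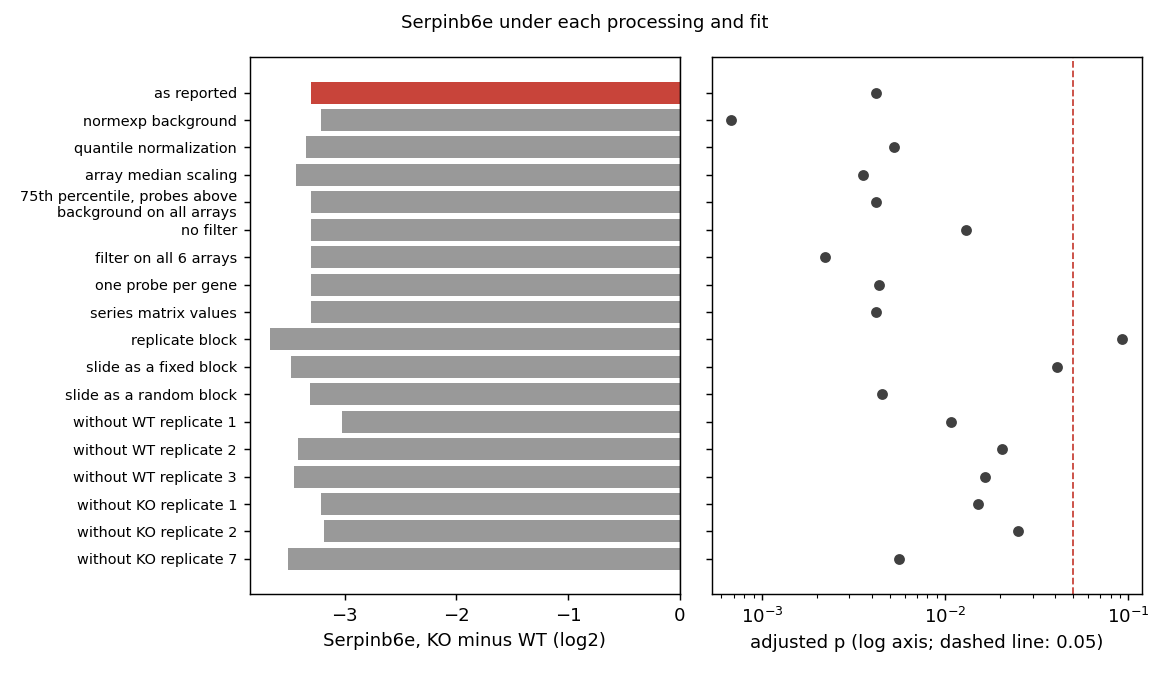
Serpinb6e under each processing and fit: bars in the left panel start at 0 and give the KO minus WT difference (log2), and points in the right panel give the adjusted p on a log axis, with a dashed line at 0.05. The difference stayed between -3.67 and -3.03, and 16 of the 17 alternatives had an adjusted p under 0.05, the exception being the replicate block at 0.093. The series matrix holds the same values as the scanner files, so that alternative repeats the reported fit. The alternatives that change only the set of probes leave the difference as reported by construction.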

How the data were processed

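The deposited scanner files give, per spot, a processed signal as an intensity, made with Agilent Feature Extraction 10.7.3.1 per the file headers, in which background correction is off, spatial and multiplicative detrending and surrogates for low values are on, and the build is mm9. Control spots and 170 to 249 outlier spots per array were left out, and spots of a probe were averaged; 40 of 39429 probes had no usable spot on at least 1 array. No spot was saturated. Values were log2 of the signal minus the array's 75th percentile. Probes that were well above background on 3 or more of 6 arrays (29601) were fitted in limma 3.58.1 (R 4.3.3; lmFit, eBayes, two-sided, no covariate), with Benjamini-Hochberg adjustment over all of them and a threshold of 0.05; prior degrees of freedom were 2.75 and residual ones 4. The probe was the unit because members are probes. With 3 mice per group, the number of arrays limits the precision. The test was checked on simulated data. Errors in that simulation were independent and without a slide effect, so it does not bear on the slide layout of these arrays.

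Members and lists were chosen with earlier results of these data known. The naming rule covered every array's values for members that passed, or that did not overlap and differed at least 2-fold, and up to 4 passing members of each list, or the 2 with the smallest p. For the lists it was not followed throughout. Every passing serpin of other clades and every kept cytotoxic marker is named. Cxcr2 alone is named among neutrophil markers, and no marker of monocytes and macrophages, mast cells or dermis is. Names of other genes came from RefSeq (GRCm38.p6, not used for coordinates of probes). Other settings tried were normexp (offset 50), quantile, median and all-array percentile scaling, no filter, a filter on all 6 arrays, 1 probe per gene, the deposited series matrix, replicate and slide blocks, and each mouse left out. Python 3.11.15 with pandas 2.3.3, numpy 2.4.6, scipy 1.17.1 and biopython 1.88 was used for the rest.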

Additional observations from a re-analysis of the deposited data

How the results depend on the processing

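The Serpinb6e fall passed in 16 of 17 alternative fits (adjusted p from 0.00068 to 0.041), with differences from -3.51 to -3.03 in them. With the replicate number as a block 0 Serpinb probes passed on chromosome 13, in place of 1; that fit gave Serpinb6e -3.67 (adjusted p = 0.093), left 1 residual degree of freedom and called 0 of all probes (5611 at an unadjusted p under 0.05). Deviations from the group means correlated at 0.10 for the mice numbered 1 and 0.05 for those numbered 2. Pairs with unlike numbers ran from -0.15 to 0.23. Deviations from a mean of 3 mice are tied to each other, so these values cannot settle whether the numbers pair mice. The reported fit does not pair them. No other Serpinb probe passed in any alternative fit. The 17 alternatives are not all separate checks. The deposited series matrix holds the same values as the scanner files, so its fit repeats the reported one. No filter, the filter on all 6 arrays and 1 probe per gene changed only which probes were fitted together. They left the Serpinb6e difference at -3.30 by construction. Signs turned for some differences that did not pass, and the cause was not tested: with slide as a block Serpinb5 was 0.0624, Serpinb8 -0.44 and Serpinb1c -0.16; with normexp background Serpinb1a was 0.13 and Serpinb9e 0.21; with quantile normalization Serpinb8 was -0.14; with the array median Serpinb3b was -0.0379 and Serpinb8 -0.0089; with the replicate block Serpinb8 was -0.11. Over the fits without 1 mouse, differences spanned -0.10 to 0.0058 for Serpinb5, -0.54 to 0.0229 for the first Serpinb12 probe, -0.11 to 0.39 for Serpinb3b, -0.12 to 0.41 for Serpinb8, -0.11 to 0.15 for Serpinb1a and -0.14 to 0.11 for Serpinb9. Over all probes, 521 were higher and 105 lower here; the counts were 995 and 156 with normexp background, 369 and 135 with quantile normalization, 305 and 30 with no filter, 183 and 10 with slide as a block, and from 207 and 18 to 892 and 325 without 1 mouse (lowest without WT 2, highest without KO 1). Without KO 1 slide and group cannot be told apart. Signals of Serpinb3d and Serpinb9e lay near background, which limits their differences.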
